A study of Mus musculus with 6 samples.

Results

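The hypoxia and HIF response genes described here are genes of the cell's oxygen sensor and targets of the hypoxia-inducible factors, HIF, picked by symbol from a list of 34 from which the glycolytic targets of HIF were left out. Of the 34 symbols, 33 were listed in the deposited count tables of 46078 genes, and Ero1l was not listed under that symbol. RefSeq gives Ero1l as a synonym of Ero1a, an oxidase of the endoplasmic reticulum, which the tables list at 1348 and 2118 counts with PD, 1238 and 2185 with YZ9 and 1166 and 1425 in controls and which the choice by symbol left out. All 33 passed the filter on low counts, and none had 0 counts in any library. RNA was taken from explants of mouse mesoderm, the middle germ layer formed at gastrulation, which were cut from embryos at E7.25 and grown on fibronectin, for 27 h by the growth protocol and 24 h by the series description. The 3 groups, of 2 libraries each, were explants given PD, an inhibitor known here by that short name alone, at 1 µM for 16 h, explants given YZ9 at 10 µM for 16 h, and control explants. YZ9 blocks PFKFB3, whose product stimulates glycolysis. All samples are labelled wild type, while the series description names embryos carrying a TCF/Lef:H2B-GFP reporter of WNT signalling. Whether control explants received a vehicle, and whether libraries came from separate embryos or cultures, is not stated, so p-values reflect how much these libraries vary, which may be technical. The oxygen level of the cultures is not given in the sources used here.

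HIF is a pair of an alpha subunit (Hif1a, Epas1 or Hif3a) and its stable partner Arnt. While oxygen is present, the EGLN enzymes hydroxylate prolines of the alpha subunits, and VHL, the recognition subunit of a ubiquitin ligase, marks them for destruction. When oxygen is short the alpha subunits accumulate, enter the nucleus and switch on genes for blood vessel growth, glycolysis, mitochondrial turnover and collagen processing. This control acts on the protein, so the levels of Hif1a or Epas1 mRNA do not give HIF activity.

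Total counts were 21253194 to 27810161 per library. Spry4, a feedback inhibitor induced by ERK signalling, had 0 counts in both PD libraries, against 378 and 286 with YZ9 and 630 and 699 in controls. Of the labelled tissue's 17 markers, Hand1, Bmp4, Tbx20 and Mef2c had 774 counts or more in every library. Mesp1, T and Tbx6, which mark the streak and nascent mesoderm, had 0 to 8 counts in every library. Mixl1, also on that list, varied more, with 1 and 6 counts with PD, 21 and 326 with YZ9 and 93 and 39 in controls. Replicate 2 of PD and replicate 2 of YZ9 had 2119 and 3956 counts of Xist, the RNA of the inactive X chromosome in females, and the other 4 libraries had 0 or 1. Blood and endothelial markers, a list of 12 led by the embryonic globins Hba-x and Hbb-bh1, summed to 623 and 6160 CPM (counts scaled to library size by TMM) in the PD libraries, 307 and 1359 CPM with YZ9 and 2513 and 7039 CPM in controls. Of 12 visceral endoderm markers, Hnf4a was at 0 counts in all libraries, and the list summed to 91.1 and 17.9 CPM with PD, 5.06 and 7.59 CPM with YZ9 and 5.88 and 12.0 CPM in controls. Of 10 definitive endoderm markers, such as Foxa2 and Sox17, 9 were tested. DESeq2 called 6 of them higher with PD and 3 higher with YZ9 than in controls, against 1.99% and 0.983% of all genes. By edgeR 0 of these markers passed. Their sums, nearly all from the keratins Krt8 and Krt18, which other epithelia share, were 10924 and 6970 CPM with PD, 6653 and 5363 CPM with YZ9 and 5312 and 4689.5 CPM in controls. The part of these cell types in the results was not tested. In bulk RNA, fewer cells of a type and less RNA per cell cannot be told apart.

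Lox, a lysyl oxidase that crosslinks collagen, set the YZ9 explants apart more than any other of the 33 genes, at 0.645 ± 0.101 CPM with YZ9 and 7.90 ± 2.45 CPM in controls (SD, n = 2 each). Pgf, a ligand of the VEGF family, was lower under both inhibitors than in controls, and Bnip3, a receptor for removal of mitochondria, was higher with PD than in controls. These 3 genes passed DESeq2 at an adjusted p under 0.05 and did not pass edgeR's quasi-likelihood test, the main test here, adjusted over the 15568 genes tested. By edgeR, 0 of the 33 genes passed in any comparison. Among all genes tested, edgeR called 0.0193% higher and 0.0771% lower with PD than in controls, 0% higher and 0.00642% lower with YZ9 than in controls, and 0.0771% higher and 0.045% lower with PD than with YZ9.

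At an unadjusted edgeR p under 0.05, 3 of the 33 genes were higher and 2 lower with PD than in controls, where 5.42% and 5.38% of all genes were. With YZ9, 1 was higher and 5 were lower than in controls, against 4.34% and 6.93% of all genes. With PD against YZ9, 4 were higher and 2 lower with PD than with YZ9, against 7.09% and 4.4% of all genes. DESeq2 called 1 higher and 1 lower with PD, where it called 1.99% and 2.05% of all genes, and 0 higher and 2 lower with YZ9, where it called 0.983% and 2.35%. Of the 32 genes for which DESeq2 gave an adjusted p between the inhibitors, 2 were higher and 1 lower with PD than with YZ9, against 2.68% and 1.2% of all genes. The authors' deposited tables hold 1 of the 33 genes higher and 1 lower with PD and 0 higher and 2 lower with YZ9, where 1.81%, 1.86%, 1.18% and 2.66% of the genes with an adjusted p in those tables were listed at an adjusted p under 0.05.

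The median log2 fold change over the 33 genes was 0.14 with PD against control, 0.16 with YZ9 against control and 0.02 with PD against YZ9, where the medians over all 15568 genes were 0.0044, 0.0021 and -0.0016. Signs were mixed, with 20 positive and 13 negative values with PD and 18 positive and 15 negative with YZ9. Both libraries lay above both controls for 7 genes and below them for 6 with PD, where 19.2% and 19.5% of all genes did so. With YZ9 these numbers were 9 and 11, where 21.1% and 24.5% of all genes did so. PD lay above YZ9 for 11 and below for 7, where 21.6% and 21.4% of all genes did so. Both inhibitors lay above both controls for 3 genes (Car9, Ndrg1 and Vhl) and below them for 4 (Egln3, Hif3a, Loxl2 and Pgf), where 8.4% and 10.1% of all genes did so. For Car9 the margin was 0.231 CPM in PD replicate 1 over 0.225 CPM in control replicate 1, at 6 counts each. Shares near those of all genes are no result about these genes. The standard error of a log2 fold change ranged from 0.16 to 0.90 over the 33 genes in the comparison of PD with control, with a median of 0.33. Each standard error given with an edgeR log2 fold change was derived from the test. It is the absolute log2 fold change divided by the square root of the F statistic. The 2 inhibitors share their controls, so values are given side by side and the direct comparison of PD with YZ9 tests their difference.

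**Figure D1:**
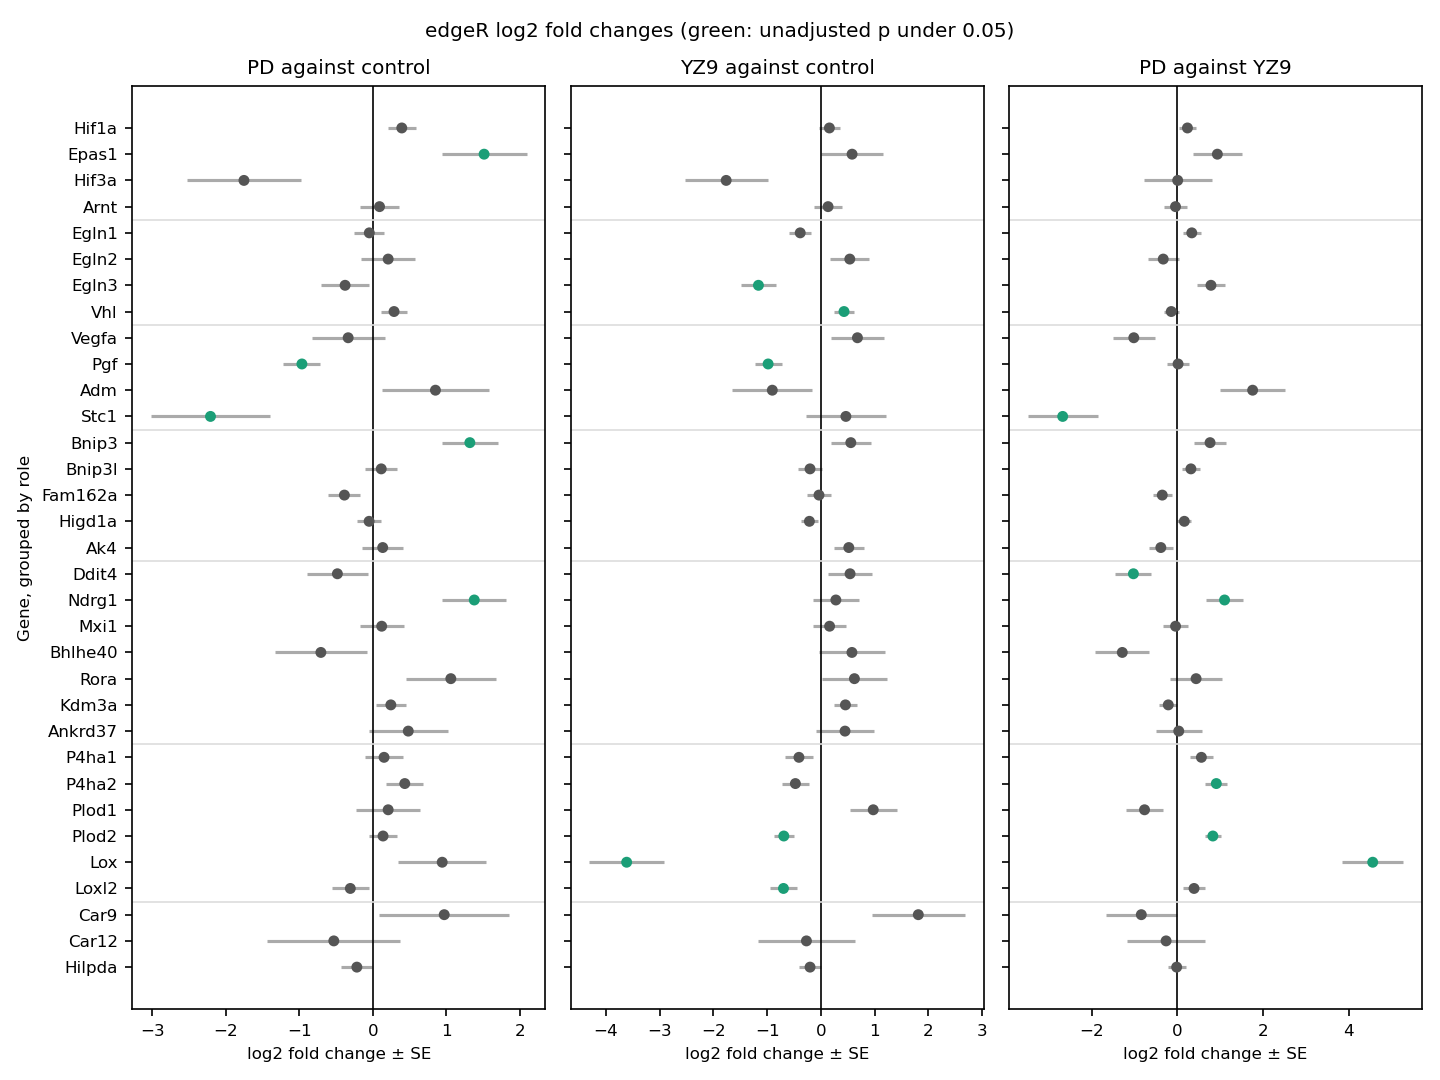
Log2 fold changes by edgeR for the 33 genes in 3 comparisons, with genes down the page by role and bars of 1 standard error; green marks an unadjusted p under 0.05. The point of Lox lies at -3.61 for YZ9 against control and at 4.56 for PD against YZ9, farther from 0 than any other gene in those panels.

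HIF binds the letters ACGTG or GCGTG, the core of the hypoxia response element. The promoters of 4 of the 33 genes are shown as the 250 bases before the RefSeq start in GRCm38.p6, 5′ to 3′ on the gene's strand. Capitals mark ACGTG and GCGTG on either strand (CACGT and CACGC where they lie on the other one). The 4 genes had the smallest unadjusted edgeR p in any comparison among those with a RefSeq promoter. Where a gene had several starts, the one with the most matches is printed. Bnip3 is on chr7:138909507-138909756 (minus strand), Pgf on chr12:85177314-85177563 (minus strand), Egln3 on chr12:54203875-54204124 (minus strand) and P4ha2 on chr11:54100674-54100923 (plus strand).
Bnip3: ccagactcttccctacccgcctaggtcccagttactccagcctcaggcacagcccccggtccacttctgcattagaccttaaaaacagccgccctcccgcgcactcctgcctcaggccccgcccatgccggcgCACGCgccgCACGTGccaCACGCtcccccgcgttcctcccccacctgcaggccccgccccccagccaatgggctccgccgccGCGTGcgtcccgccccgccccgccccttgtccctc
Pgf: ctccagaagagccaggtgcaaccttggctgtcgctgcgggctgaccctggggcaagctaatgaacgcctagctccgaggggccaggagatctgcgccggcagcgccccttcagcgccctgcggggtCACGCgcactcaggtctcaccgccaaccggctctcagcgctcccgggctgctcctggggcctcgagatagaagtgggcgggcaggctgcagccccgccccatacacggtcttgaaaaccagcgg
Egln3: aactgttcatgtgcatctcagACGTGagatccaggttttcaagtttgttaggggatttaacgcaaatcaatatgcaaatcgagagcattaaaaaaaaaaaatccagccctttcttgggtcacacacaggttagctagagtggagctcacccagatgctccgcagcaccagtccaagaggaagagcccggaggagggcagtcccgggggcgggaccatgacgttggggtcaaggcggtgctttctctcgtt
P4ha2: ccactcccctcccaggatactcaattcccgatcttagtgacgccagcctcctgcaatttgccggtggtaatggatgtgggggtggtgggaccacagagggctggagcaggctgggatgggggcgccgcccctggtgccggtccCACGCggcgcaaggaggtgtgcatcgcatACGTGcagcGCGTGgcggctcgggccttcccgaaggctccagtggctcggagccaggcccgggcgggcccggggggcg
Bnip3 held 5 matches, of which ACGTG and its reverse CACGT overlap in the run that starts 108 bases before the start. P4ha2 held 3, while Pgf held 1 and Egln3 held 1. RefSeq promoters of 300 bases, from 250 before to 50 after the start, matched 25 of the 33 genes by symbol, and 8 had none (Bhlhe40, Bnip3l, Epas1, Lox, Loxl2, Ndrg1, Plod2 and Stc1). At least 1 promoter held a match on either strand for 23 of the 25, or 92.0%. Of all 27025 genes with a promoter 46.7% did so, as did 66.5% of the 11177 that were also tested here. The 33 genes were picked as genes of the oxygen sensor and targets of HIF, so their share describes that choice and is no result of these data. Vhl and Car12 were the 2 genes with no match in this window. A match is a string of letters and not a measured binding site.

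The HIF subunits came first among the roles. Hif1a, the alpha subunit most tissues express, was at 276 and 372 CPM with PD, 256 and 294 CPM with YZ9 and 267 and 226 CPM in controls. The PD libraries were above both controls, by a log2 fold change of 0.39 (SE 0.19, edgeR adjusted p = 0.552). Epas1, the alpha subunit known from endothelium and other vascular cells, was at 21.4 and 67.9 CPM with PD, 20.3 and 26.4 CPM with YZ9 and 20.9 and 10.4 CPM in controls. Both PD libraries lay above both controls, replicate 1 by a small margin and replicate 2 far above all other libraries. The log2 fold change with PD was 1.52 (SE 0.58, edgeR adjusted p = 0.402), and it became 0.45 without PD replicate 2 and 2.12 without PD replicate 1. PD replicate 2 carried 6160 CPM of blood and endothelial markers, a sum led by the embryonic globins, against 623 CPM in PD replicate 1. In controls the order was the other way. Control replicate 2 had 7039 CPM of these markers, the most of any library, and the lowest Epas1, and control replicate 1 had 2513 CPM. The part of these cells in the level of Epas1 was not tested.

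Hif3a, an alpha subunit with forms that restrain the other 2, was the least abundant subunit, with 9 and 24 counts with PD, 10 and 25 with YZ9 and 33 and 85 in controls. All 4 inhibitor libraries were below both controls. Its log2 fold change was -1.75 with PD (SE 0.77, edgeR adjusted p = 0.501) and -1.76 with YZ9 (SE 0.77, adjusted p = 0.458). Arnt, the shared partner, was at 35.8 and 55.4 CPM with PD, 50.4 and 43.5 CPM with YZ9 and 48.8 and 36.8 CPM in controls, with all 3 groups overlapping. Per kilobase of annotated exon, the mean level of Hif1a was 55.0 CPM with PD, 46.7 with YZ9 and 41.8 in controls, that of Epas1 7.99, 4.18 and 2.79, that of Arnt 5.70, 5.87 and 5.34, and that of Hif3a 0.0978, 0.0962 and 0.331. Hif1a was thus the most abundant alpha subunit per length in every group.

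Among the oxygen sensors, Egln3, which is itself a HIF target in many cells, was at 4.57 and 3.98 CPM with PD, 2.64 and 2.33 CPM with YZ9 and 5.40 and 5.72 CPM in controls. The YZ9 libraries were lowest, the PD libraries lay between, and no groups overlapped. Its log2 fold change was -1.16 with YZ9 (SE 0.33, unadjusted p = 0.0110, edgeR adjusted p = 0.299), -0.38 with PD (SE 0.33, adjusted p = 0.799) and 0.78 for PD against YZ9 (SE 0.33, adjusted p = 0.439). The YZ9 value stayed between -1.25 and -1.06 under all 12 alternative settings. Egln1, the main sensor in most cells, was at 52.9 and 43.1 CPM with PD, 33.3 and 42.7 CPM with YZ9 and 50.9 and 48.3 CPM in controls. YZ9 was below both controls and PD overlapped them (log2 fold change with YZ9 -0.38, SE 0.20, adjusted p = 0.528).

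Egln2 overlapped between all groups, at 30.2 and 48.3 CPM with PD, 57.8 and 40.8 CPM with YZ9 and 43.6 and 24.3 CPM in controls. Vhl was at 50.2 and 43.4 CPM with PD, 54.9 and 48.3 CPM with YZ9 and 36.8 and 39.7 CPM in controls. All inhibitor libraries were above both controls, with log2 fold changes of 0.43 with YZ9 (SE 0.18, unadjusted p = 0.0479, edgeR adjusted p = 0.436) and 0.29 with PD (SE 0.18, adjusted p = 0.671). Egln3 lies on chromosome 12, 54178981 to 54203860, in GRCm38 (GENCODE M21).

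**Figure D2:**
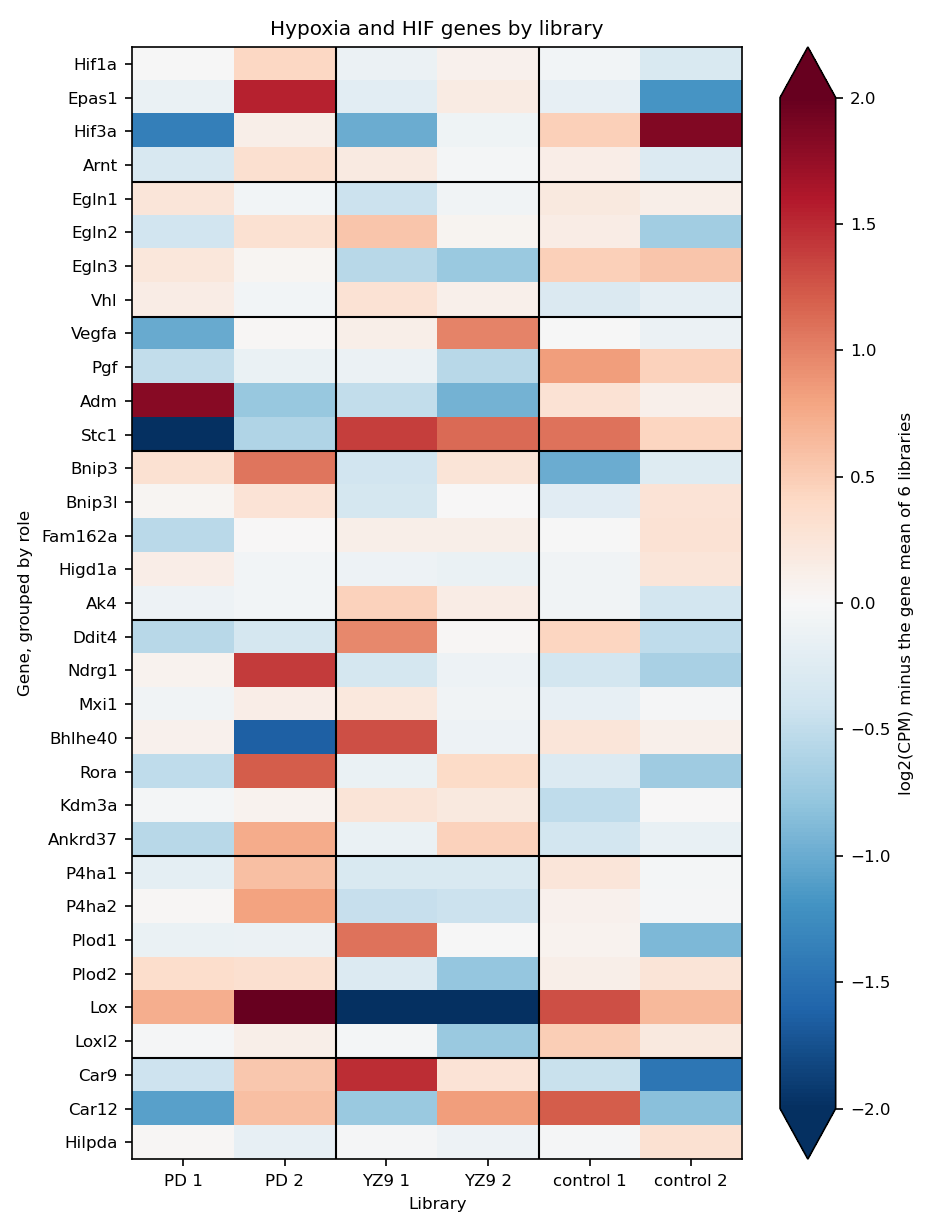
Level of the 33 genes in 6 libraries as log2 CPM minus each gene's mean over the libraries, with genes down the page by role and libraries across it; lines separate roles and groups, and values beyond -2 and 2 share the end colours. Lox is blue in both YZ9 libraries, Stc1 in both PD libraries, and Epas1, Ndrg1, Rora and Lox are at their highest in PD replicate 2.

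Of the secreted targets, Pgf, which signals through the receptor FLT1, was at 26.8 and 34.6 CPM with PD, 35.0 and 25.7 CPM with YZ9 and 67.7 and 52.1 CPM in controls. All 4 inhibitor libraries lay below both controls and the 2 inhibitors overlapped. By edgeR the log2 fold change was -0.96 with PD (SE 0.25, unadjusted p = 0.00722, edgeR adjusted p = 0.229) and -0.98 with YZ9 (SE 0.25, unadjusted p = 0.00665, adjusted p = 0.257). DESeq2 gave adjusted p = 0.0299 with PD and 0.0312 with YZ9, and the authors' deposited tables list adjusted p = 0.0277 and 0.0305. The 2 comparisons use the same controls. With DESeq2 and 1 library left out, Pgf passed in 3 of 6 fits in each comparison, and the calls ended without either control (adjusted p up to 0.454 with PD and 0.447 with YZ9). They also ended without PD replicate 1 in the comparison of PD and without YZ9 replicate 2 in that of YZ9. The direct difference between PD and YZ9 was 0.02 (SE 0.25, edgeR adjusted p = 0.988). Pgf lies on chromosome 12, 85166635 to 85177790.

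Stc1, a secreted glycoprotein hormone, had 4 and 27 counts with PD, 96 and 108 with YZ9 and 94 and 59 in controls. Both PD libraries were below all others and both YZ9 libraries above both controls. Stc1 gave a log2 fold change of -2.21 with PD (SE 0.81, unadjusted p = 0.0308, edgeR adjusted p = 0.380), 0.47 with YZ9 (SE 0.74, adjusted p = 0.840) and -2.67 for PD against YZ9 (SE 0.81, unadjusted p = 0.0146, edgeR adjusted p = 0.322). For PD against YZ9 DESeq2 gave adjusted p = 0.0399, and in DESeq2 fits without 1 library Stc1 passed in 1 of 6, the fit without PD replicate 2 (adjusted p = 3.35e-04). PD replicate 1 held the lowest value, and the fitted change with PD against control by edgeR ranged from -4.18 without PD replicate 2 to -1.40 without PD replicate 1. Stc1 lies on chromosome 14, 69029238 to 69041804.

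Vegfa, the main growth factor of endothelial cells and the best known HIF target, was low throughout, at 1.73 and 3.54 CPM with PD, 3.76 and 6.88 CPM with YZ9 and 3.45 and 3.20 CPM in controls. YZ9 lay above both controls and PD overlapped them. It had log2 fold changes of 0.68 with YZ9 (SE 0.49, edgeR adjusted p = 0.635) and -0.33 with PD (SE 0.50, adjusted p = 0.908). Adm, the precursor of a peptide that widens vessels, was at 23.8 and 3.94 CPM with PD, 4.75 and 3.47 CPM with YZ9 and 8.17 and 7.19 CPM in controls. PD replicate 1 was the highest library, and both YZ9 libraries lay below both controls. The log2 fold change with PD of 0.85 (SE 0.73, edgeR adjusted p = 0.798) became -0.96 without PD replicate 1. That library also had the most visceral endoderm marker RNA, 91.1 CPM against at most 17.9 CPM elsewhere. The sum of 8 trophoblast markers was highest in PD replicate 1 too, at 367 CPM against at most 216 CPM elsewhere. In that library 3 of the 8 had 0 counts. Of the 6 trophoblast markers tested, 1 was higher and 3 lower with PD than in controls at an unadjusted edgeR p under 0.05. Of all genes, 5.42% and 5.38% were. The sum of the definitive endoderm markers was also highest in PD replicate 1, at 10924 CPM against at most 6970 CPM. The part of any of those cells in the level of Adm was not tested.

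Among mitochondrial genes, Bnip3 was at 52.4 and 88.5 CPM with PD, 32.3 and 50.6 CPM with YZ9 and 21.2 and 35.2 CPM in controls. Both PD libraries were above all YZ9 and control libraries, and YZ9 overlapped the controls. The log2 fold change was 1.32 with PD (SE 0.38, unadjusted p = 0.0111, edgeR adjusted p = 0.256), 0.56 with YZ9 (SE 0.37, adjusted p = 0.611) and 0.76 for PD against YZ9 (SE 0.37, adjusted p = 0.505). With PD against control, DESeq2 gave adjusted p = 0.0262 and the authors' deposited table lists 0.0159. With DESeq2 and 1 library left out it passed in 4 of 6 fits, and the call ended without control replicate 1 and without PD replicate 2 (adjusted p up to 0.400). In each group replicate 2 had the higher value, by 1.69-fold with PD, 1.56-fold with YZ9 and 1.66-fold in controls. Bnip3 lies on chromosome 7, 138890836 to 138909519, and its exons overlap the gene Gm45507 on the opposite strand, from which an unstranded library cannot separate it.

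The other 4 mitochondrial genes showed small differences. Bnip3l, a relative of Bnip3 known for clearing mitochondria from maturing red cells, was at 210.2 and 247 CPM with PD, 162 and 206 CPM with YZ9 and 175 and 248 CPM in controls, and both inhibitors overlapped the controls. Fam162a, a mitochondrial protein linked to cell death under hypoxia, was at 58.2 and 85.4 CPM with PD, 92.1 and 91.1 CPM with YZ9 and 84.2 and 103 CPM in controls, with a log2 fold change with PD of -0.39 (SE 0.22, edgeR adjusted p = 0.628). Higd1a, a factor of the respiratory chain, was at 164 and 144 CPM with PD, 139 and 136 CPM with YZ9 and 142 and 177 CPM in controls. Ak4, an adenylate kinase of the mitochondrial matrix, was at 7.57 and 7.77 CPM with PD, 11.1 and 8.94 CPM with YZ9 and 7.68 and 6.29 CPM in controls. YZ9 lay above both controls for Ak4 (log2 fold change 0.52, SE 0.28, edgeR adjusted p = 0.536) and PD overlapped them.

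**Figure D3:**
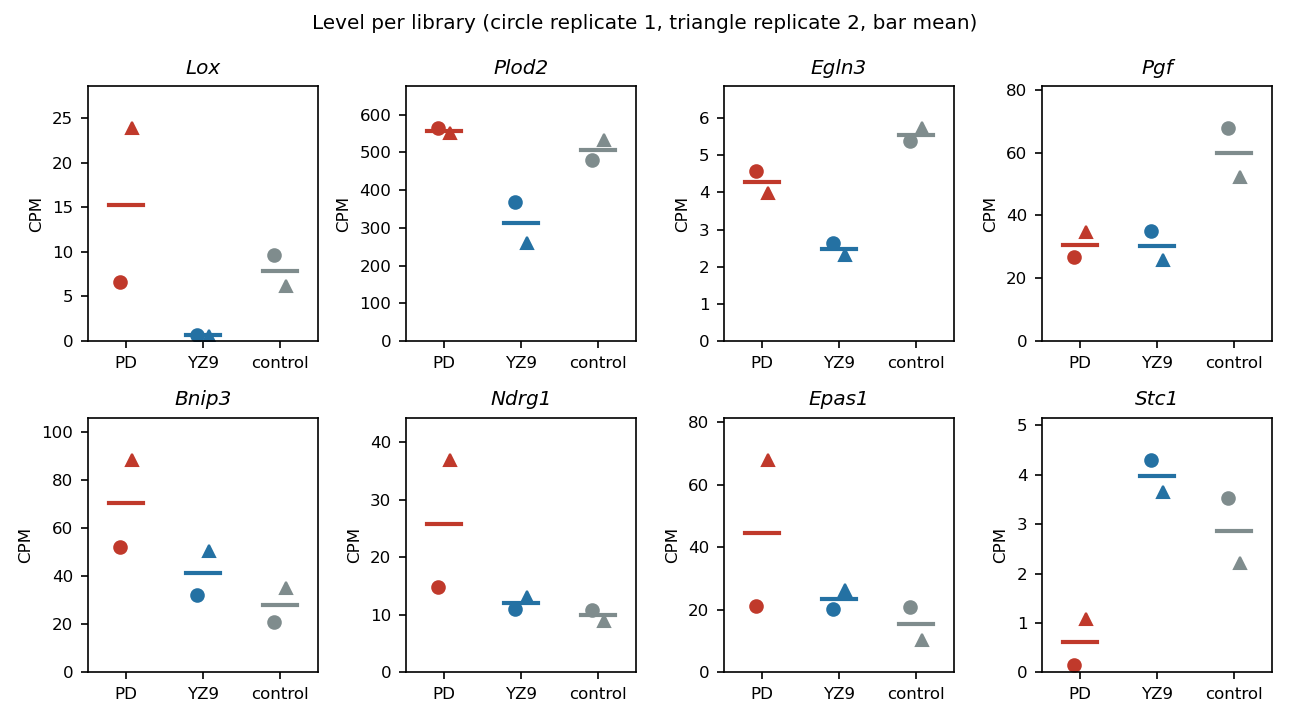
CPM of 8 genes in each library, on axes that start at 0, for PD, YZ9 and control; circles are replicate 1, triangles replicate 2 and bars the mean of both. The YZ9 libraries sit at 0.717 and 0.573 CPM for Lox, Pgf is lower in all 4 inhibitor libraries than in controls, and PD replicate 2 stands above every other library for Lox, Bnip3, Ndrg1 and Epas1.

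Among genes of growth and transcription, Ndrg1, a stress-induced cytoplasmic protein, was at 14.8 and 36.9 CPM with PD, 11.0 and 13.1 CPM with YZ9 and 10.8 and 8.996 CPM in controls. Both inhibitors lay above both controls, YZ9 by a small margin. For Ndrg1 the log2 fold change was 1.38 with PD (SE 0.44, unadjusted p = 0.0172, edgeR adjusted p = 0.305), 0.28 with YZ9 (SE 0.43, adjusted p = 0.836) and 1.10 for PD against YZ9 (SE 0.43, unadjusted p = 0.0406, adjusted p = 0.419). It rested on PD replicate 2, without which the change with PD was 0.57 and with which alone it was 1.90. Ndrg1 lies on chromosome 15, 66929318 to 66969640. Ddit4, which restrains the growth kinase complex mTORC1, was at 14.7 and 16.9 CPM with PD, 42.4 and 22.1 CPM with YZ9 and 29.0 and 15.2 CPM in controls. PD was below YZ9 and each overlapped the controls (log2 fold change of PD against YZ9 -1.02, SE 0.42, unadjusted p = 0.0462, edgeR adjusted p = 0.428).

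Bhlhe40, a repressor of the clock and of differentiation genes, was at 25.7 and 7.85 CPM with PD, 59.3 and 22.6 CPM with YZ9 and 28.8 and 26.0 CPM in controls. Both PD libraries lay below both controls, the PD libraries differed 3.28-fold and the YZ9 libraries 2.62-fold. Its change with PD of -0.71 (SE 0.62, edgeR adjusted p = 0.807) was -1.80 without PD replicate 1. Kdm3a, a demethylase of histone H3, was at 51.8 and 55.9 CPM with PD, 63.7 and 60.9 CPM with YZ9 and 37.6 and 53.2 CPM in controls, and YZ9 lay above both controls (log2 fold change 0.46, SE 0.21, edgeR adjusted p = 0.467). Rora, a nuclear receptor, was at 2.04 and 6.68 CPM with PD, 2.64 and 3.78 CPM with YZ9 and 2.40 and 1.77 CPM in controls. Ankrd37, an ankyrin repeat protein, was at 1.65 and 4.03 CPM with PD, 2.19 and 3.34 CPM with YZ9 and 1.87 and 2.18 CPM in controls. For both, YZ9 lay above the controls and PD overlapped them. For Ankrd37 the margin was 2.194 CPM in YZ9 replicate 1 over 2.183 CPM in control replicate 2, from 49 and 58 counts. Mxi1, a partner of MAX that opposes MYC, overlapped between all groups, from 5.21 to 6.76 CPM. All 7 genes of growth and transcription had positive log2 fold changes with YZ9 (median 0.46), where 7808 of all 15568 genes did. With PD 5 were positive and 2 negative (median 0.25).

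Of the genes that process and crosslink collagen, Lox had the widest gap between the inhibitors, which was also the widest among all 33 genes. Lox was at 6.57 and 23.9 CPM with PD, 0.717 and 0.573 CPM with YZ9 and 9.63 and 6.17 CPM in controls, from 171 and 593 counts, 16 and 17 counts and 257 and 164 counts. Both YZ9 libraries were far below the other 4, and the PD libraries overlapped the controls, with replicate 2 above both. The mean was 12.3-fold lower with YZ9 than in controls, with a log2 fold change of -3.61 (SE 0.69, unadjusted p = 0.00147, edgeR adjusted p = 0.195). PD against YZ9 gave 4.56 (SE 0.71, unadjusted p = 4.71e-04, adjusted p = 0.103), and PD against control 0.94 (SE 0.60, adjusted p = 0.682). DESeq2 gave adjusted p = 1.51e-05 with YZ9 and 3.81e-09 for PD against YZ9, and the authors' deposited table lists 8.92e-09 for YZ9. Lox passed in all 6 DESeq2 fits that left out 1 library in both comparisons, with log2 fold changes from -3.90 to -3.26 with YZ9 and from 3.36 to 5.22 for PD against YZ9. Over the 12 alternative settings, 11 fits by edgeR and 1 by DESeq2, the adjusted p of Lox with YZ9 ranged from 1.51e-05 to 0.804, and it passed in 3: DESeq2, no filter on low counts, and the libraries without Xist alone. The change with PD against control turned to -0.26 without PD replicate 2. Lox lies on chromosome 18, 52516067 to 52529867, and like Plod2, Loxl2, Stc1, Ndrg1 and Hif1a its exons overlap a gene on the opposite strand.

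Plod2, a lysyl hydroxylase that prepares collagen for stable crosslinks, was the gene of this group with the most RNA, at 563 and 552 CPM with PD, 367 and 261 CPM with YZ9 and 481 and 532 CPM in controls. YZ9 was below and PD above both controls. The log2 fold change was -0.69 with YZ9 (SE 0.19, unadjusted p = 0.00856, edgeR adjusted p = 0.278), 0.14 with PD (SE 0.19, adjusted p = 0.888) and 0.83 for PD against YZ9 (SE 0.19, unadjusted p = 0.00349, adjusted p = 0.210). DESeq2 gave adjusted p = 0.0931 with YZ9 and 0.0172 for PD against YZ9. In DESeq2 fits without 1 library PD against YZ9 passed in 3 of 6, and the call ended without either PD library or YZ9 replicate 2 (adjusted p up to 0.279). Plod2 lies on chromosome 9, 92542223 to 92608428.

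P4ha1 and P4ha2, the catalytic subunits of the enzyme that hydroxylates collagen prolines, were lower with YZ9 than in both controls. P4ha1 was at 156 and 269 CPM with PD, 145 and 144 CPM with YZ9 and 209 and 173 CPM in controls, with a log2 fold change with YZ9 of -0.41 (SE 0.26, edgeR adjusted p = 0.597). P4ha2 was at 116 and 199 CPM with PD, 82.7 and 84.9 CPM with YZ9 and 121 and 112 CPM in controls. The YZ9 libraries were lowest and the PD libraries overlapped the controls, with replicate 2 above both. The log2 fold change of P4ha2 was -0.47 with YZ9 (SE 0.25, adjusted p = 0.532) and 0.91 for PD against YZ9 (SE 0.26, unadjusted p = 0.0102, adjusted p = 0.291). P4ha2 lies on chromosome 11, 54100095 to 54131665.

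Loxl2, a lysyl oxidase related to Lox, was at 139 and 153 CPM with PD, 138 and 85.0 CPM with YZ9 and 200.0 and 162 CPM in controls. All 4 inhibitor libraries were below both controls, with log2 fold changes of -0.70 with YZ9 (SE 0.25, unadjusted p = 0.0292, edgeR adjusted p = 0.391) and -0.31 with PD (SE 0.25, adjusted p = 0.781). Plod1, the other lysyl hydroxylase here, was at 29.3 and 29.5 CPM with PD, 68.2 and 31.7 CPM with YZ9 and 33.7 and 17.1 CPM in controls (log2 fold change with YZ9 0.97, SE 0.44, adjusted p = 0.467). Its YZ9 libraries overlapped the controls. Of these 6 genes of collagen processing, 5 thus had both YZ9 libraries below both controls, where 24.5% of all genes did so. The median of the log2 fold changes of the 6 was -0.58. With PD the median was 0.18, with 1 gene above both controls (Plod2) and 1 below (Loxl2). Mesoderm markers summed to 901 and 1675 CPM with PD, 824 and 1572 CPM with YZ9 and 1120 and 821 CPM in controls. Blood and endothelial markers were lower in both YZ9 libraries, at 307 and 1359 CPM, than in both controls, at 2513 and 7039 CPM. The part of either cell type in the levels of the collagen-processing genes was not tested.

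The remaining genes act on pH and lipid. Hilpda, which coats lipid droplets and inhibits a lipase, was at 28.0 and 24.7 CPM with PD, 27.4 and 25.9 CPM with YZ9 and 27.2 and 34.1 CPM in controls, with all groups overlapping. Car9, a membrane carbonic anhydrase and a widely used marker of hypoxic tissue, had 6 and 11 counts with PD, 19 and 11 with YZ9 and 6 and 3 in controls. In the mean of the 6 libraries it was the lowest of the 33 genes per kilobase, at 0.146 CPM with PD, 0.265 with YZ9 and 0.0733 in controls, and its log2 fold change with YZ9 was 1.81 (SE 0.87, edgeR adjusted p = 0.488). Car12, a related enzyme, had 23 and 71 counts with PD, 25 and 99 with YZ9 and 116 and 28 in controls, with all groups overlapping.

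Per kilobase of annotated exon, the 33 genes ranged from 0.162 to 101 CPM in the mean of the 6 libraries, and 15 were at 10 or more. The highest were Fam162a, Plod2, Bnip3l, Higd1a, Hif1a, P4ha1, Loxl2 and Hilpda, all at 25.3 CPM per kilobase or more. The lowest were Hif3a, Vegfa, Stc1, Mxi1, Rora, Car9 and Car12, each under 1. Vegfa averaged 0.615 CPM per kilobase with PD, 1.24 with YZ9 and 0.776 in controls, against 103, 58.2 and 93.9 for Plod2. The genes with the highest levels were thus mitochondrial and collagen-processing genes together with Hif1a and Hilpda, while Vegfa and Car9 were near the bottom of the order.

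**Figure D4:**
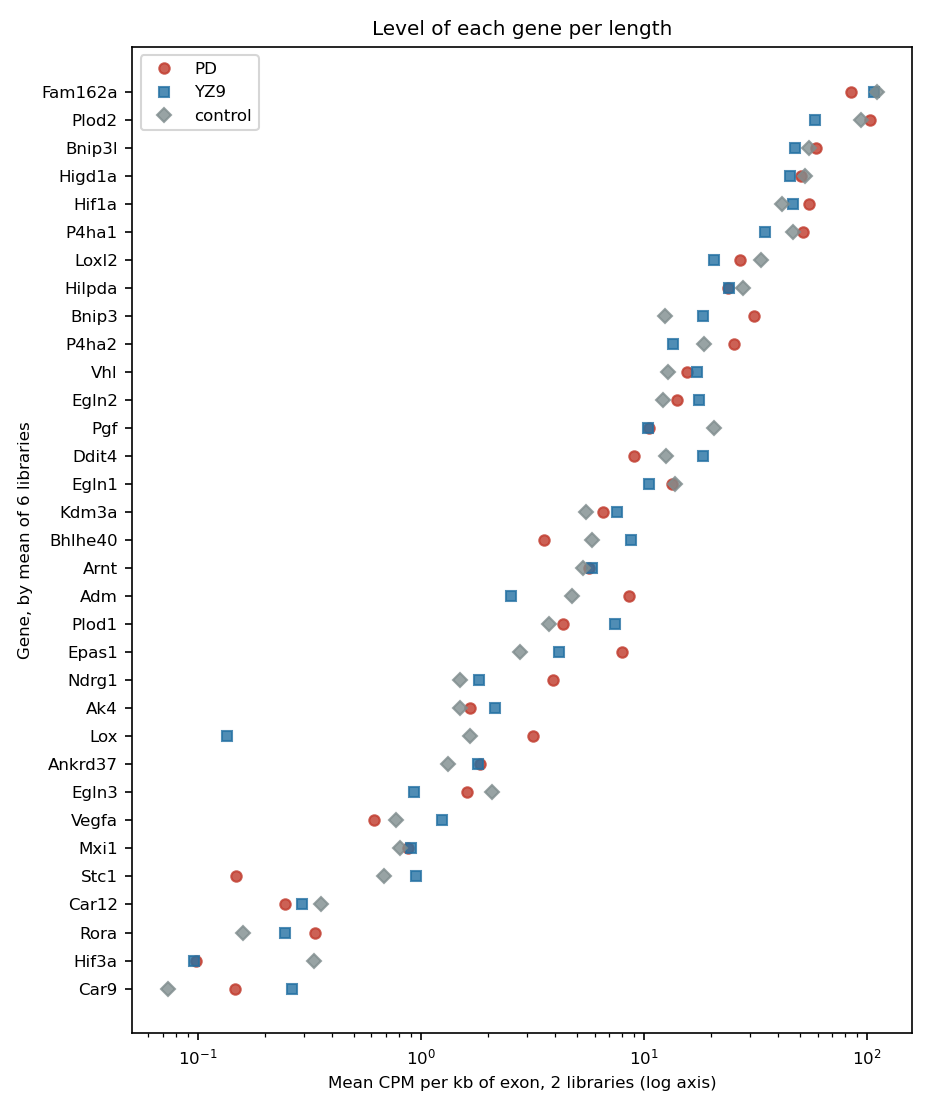
Mean CPM per kilobase of exon of each of the 33 genes with PD, with YZ9 and in controls, on a log axis, in the order of the mean over 6 libraries. Lox with YZ9 and Stc1 with PD lie farthest below the other groups of their genes.

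Many of these genes differed between the 2 PD libraries. Replicate 2 was the higher PD library for 25 of the 33 genes, against 50.3% of all genes tested, and for 12 of 33 with YZ9 and 12 of 33 in controls, against 49.5% and 50.2%. The median absolute log2 ratio between the 2 libraries was 0.63 over the 33 genes with PD, against 0.34 over all genes. It was 0.36 over the 33 genes with YZ9, against 0.32 over all genes, and 0.32 in controls, against 0.33. The widest ratios with PD were those of Stc1 (7.07-fold higher in replicate 2), Lox (3.63-fold), Rora (3.28-fold), Car12 (3.23-fold) and Epas1 (3.18-fold), with Adm (6.03-fold) and Bhlhe40 (3.28-fold) higher in replicate 1. PD replicate 2 was the highest of the 6 libraries for 10 genes, or 30.3%, against 15.5% of all genes, and YZ9 replicate 1 for another 10, against 19.2%. The first set held Hif1a, Epas1, Arnt, Bnip3, Ndrg1, Rora, Ankrd37, P4ha1, P4ha2 and Lox, and the second Egln2, Vhl, Stc1, Ak4, Ddit4, Mxi1, Bhlhe40, Kdm3a, Plod1 and Car9. PD replicate 2 also differed from PD replicate 1 in Xist and in blood markers, as given above, and their part in these ratios was not tested.

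**Figure D5:**
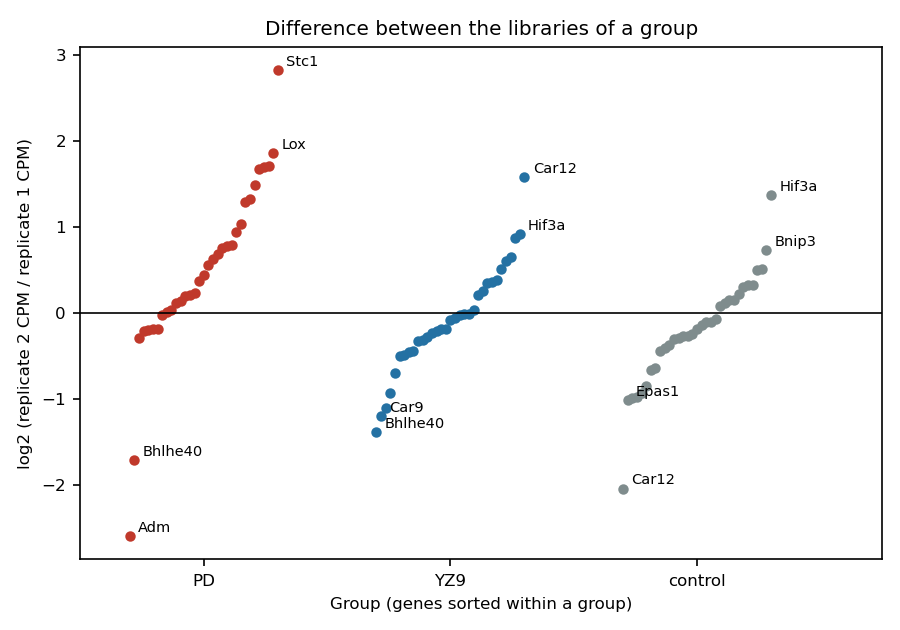
Log2 ratio of replicate 2 to replicate 1 for each of the 33 genes in the PD, YZ9 and control groups, sorted within a group, with the extreme genes named. With PD 25 points lie above 0, with YZ9 12 and in controls 12.

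The other genes of the pathway gave no call by edgeR. Of 43 tested regulators and non-glycolytic targets of HIF, 0 passed in any comparison, and 0 were higher and 4 lower at an unadjusted p under 0.05 with PD, 1 higher and 3 lower with YZ9, and 1 higher and 4 lower with PD against YZ9. At that threshold 5.42% of all genes were higher and 5.38% lower with PD, 4.34% and 6.93% with YZ9, and 7.09% and 4.4% with PD against YZ9. The median log2 fold change of the 43 was -0.08 with PD, -0.04 with YZ9 and 0.00 for PD against YZ9. The smallest p values against control were those of Rbpj, the DNA-binding factor of the Notch pathway, with PD (log2 fold change -0.82, edgeR adjusted p = 0.230) and Plin2, a coat protein of lipid droplets, with YZ9 (-0.80, adjusted p = 0.291). DESeq2 called 2 of the 43 lower with PD and 0 with YZ9. Of the 21 glycolytic targets of HIF, 0 passed by edgeR, and DESeq2 called 2 higher and 1 lower with PD and 1 higher with YZ9. Of all genes, DESeq2 called 1.99% higher and 2.05% lower with PD and 0.983% higher and 2.35% lower with YZ9. Slc2a3, a glucose transporter, had the smallest p under both inhibitors, at 1154 and 1925 CPM with PD, 1404 and 1713 CPM with YZ9 and 455 and 282 CPM in controls. All 4 inhibitor libraries lay above both controls, with log2 fold changes of 2.06 with PD (edgeR adjusted p = 0.106) and 2.08 with YZ9 (adjusted p = 0.134). Between the inhibitors the smallest p was that of Hk2, a hexokinase, with a log2 fold change of PD against YZ9 of -0.42. The glycolytic targets summed to 9952 and 15774 CPM with PD, 10795 and 11394 CPM with YZ9 and 9606 and 7404 CPM in controls. Their sum was thus highest in PD replicate 2, where Slc2a1 alone gave 6285 CPM, against 3121 CPM in PD replicate 1. Single targets differed: Tpi1 and Ldha were highest in PD replicate 2, while Hk2 and Eno1 were highest in control replicate 1.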

How the data were processed

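RNA-seq libraries of 6 explant samples were compared, 2 in each of 3 groups. The authors deposited raw counts per gene, with their DESeq2 log2 fold changes and adjusted p-values, in 2 tables that hold the same controls. The submitters' processing notes name CASAVA 1.8.2, STAR 2.7.9a, DESeq2 1.40.1 and GRCm38, while the counting step and annotation are not stated there. Counts were tested with edgeR 4.0.16 in R 4.3.3 (quasi-likelihood, TMM, 2-sided, all 6 libraries in 1 fit), for genes kept by filterByExpr with a minimum count of 10 and a minimum total of 15. P-values were adjusted by Benjamini-Hochberg over 15568 genes, with a threshold of 0.05. DESeq2 1.42.0, other normalization, no filter, a replicate block, the libraries without Xist and leaving out each library were alternatives. The fit was tested on simulated data. CPM used TMM-scaled totals, and exon lengths and positions are from GENCODE M21. The library kit marks no strand, so overlapping genes on opposite strands, which 15 of the 33 genes have, are not separated. The members and lists were chosen with earlier results of these data known. All members are named, and values of every library are given for those with a mean of at least 10 CPM in a group, the HIF subunits and sensors, and those with an unadjusted p under 0.05; from the other lists the gene with the smallest p in each comparison is named, except 1 that is not reported here.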

Additional observations from a re-analysis of the deposited data

Results flagged for a closer look

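Plod2 and Stc1 stood out because the libraries of the inhibitors lay on opposite sides of both controls. For Plod2 both PD libraries were above and both YZ9 libraries below the controls, with a log2 fold change of PD against YZ9 of 0.83 (SE 0.19, edgeR adjusted p = 0.210). For Stc1 both PD libraries were below and both YZ9 libraries above the controls, with a log2 fold change of PD against YZ9 of -2.67 (SE 0.81, edgeR adjusted p = 0.322), from 4 and 27 counts with PD and 96 and 108 with YZ9. Neither difference passed edgeR, and both passed DESeq2.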

How the results depend on the processing

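By edgeR, 0 of the 33 genes passed in any comparison, also with DESeq2's size factors, with the 4 libraries of a comparison alone and with the replicate block. Without the filter on low counts, 3 passed higher (Bnip3, Epas1 and Ndrg1) and 1 lower (Pgf) with PD, 3 lower with YZ9 (Lox, Pgf and Plod2), and 3 higher (Lox, P4ha2 and Plod2) and 1 lower (Stc1) with PD against YZ9. DESeq2 called 1 higher and 1 lower with PD, 2 lower with YZ9, and 2 higher and 1 lower with PD against YZ9. In the 4 libraries without Xist alone, 1 passed lower with PD (Stc1), 1 lower with YZ9 (Lox) and 1 lower with PD against YZ9 (Stc1). When 1 library was left out, the edgeR counts stayed at 0 except for PD against YZ9, where 0 to 1 passed higher (Lox, without PD replicate 1). DESeq2 fits without 1 library, chosen after seeing the data, gave 1 to 4 higher and 0 to 2 lower with PD, 1 to 4 lower with YZ9, and 1 to 5 higher and 0 to 1 lower with PD against YZ9. Over all genes those fits called 0.818% to 1.96% higher and 0.891% to 2.9% lower with PD, 0.692% to 2.68% lower with YZ9, and 1.71% to 2.27% higher and 0.462% to 1.76% lower with PD against YZ9. Where a group keeps 1 library, that library is assumed to vary like the other groups. The cause of these differences was not tested.

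Over all 15568 genes tested edgeR called 15 with PD, 1 with YZ9 and 19 for PD against YZ9, higher and lower together. The fit without the filter tested 26291 genes, and that of the libraries without Xist tested 16276. The counts were 712, 556 and 601 without the filter, 629, 519 and 534 by DESeq2, 428, 183 and 132 in the libraries without Xist, and 19, 5 and 0 with the 4 libraries of each comparison. With the replicate number as a block they were 1, 3 and 12, with 0 of the 33 genes in each. Over all genes tested, deviations of same-numbered libraries correlated at -0.10 for PD and control, 0.15 for YZ9 and control and 0.35 for PD and YZ9. Over the 33 genes the values were -0.24, 0.13 and 0.49 in that order. As 1 of the values over all genes is under 0.1, the numbers were not taken to pair the libraries. Replicate 2 of PD and of YZ9 do share the presence of Xist. The block turned 2 signs for PD against YZ9, at Hif3a -0.060 and Ankrd37 -0.034.

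In the libraries without Xist alone, the log2 fold change with PD against control turned its sign for Arnt -0.26, Egln1 0.093, Egln2 -0.17, Bnip3l -0.0070, Higd1a 0.040, Rora -0.032, Ankrd37 -0.29, P4ha1 -0.30, P4ha2 -0.0071 and Lox -0.26. For PD against YZ9 it did so for Hif3a -0.38, Pgf -0.40, Rora -0.39, Ankrd37 -0.42, Loxl2 -0.0051 and Hilpda 0.017. With 1 library left out, log2 fold changes crossed 0 within these ranges with PD against control: Bnip3l -0.12 to 0.39, Ddit4 -0.88 to 0.060, Car12 -1.60 to 0.82, Arnt -0.26 to 0.38, Egln2 -0.17 to 0.69, Higd1a -0.20 to 0.12, Ak4 -0.0052 to 0.29, Plod1 -0.20 to 0.78, Vegfa -0.94 to 0.093, Adm -0.96 to 1.63, Egln1 -0.20 to 0.093, Rora -0.032 to 1.68, Ankrd37 -0.29 to 0.99, P4ha1 -0.30 to 0.50, P4ha2 -0.0073 to 0.78 and Lox -0.26 to 1.60. With YZ9 against control the ranges were Car12 -1.25 to 1.08, Arnt -0.058 to 0.35, Bnip3l -0.43 to 0.071, Fam162a -0.18 to 0.12 and Bhlhe40 -0.27 to 1.13. For PD against YZ9 they were Arnt -0.40 to 0.24, Adm -0.056 to 2.52, Mxi1 -0.19 to 0.096, Car12 -1.35 to 0.72, Hif1a -0.0089 to 0.44, Epas1 -0.14 to 1.54, Hif3a -0.92 to 0.56, Pgf -0.20 to 0.25, Rora -0.67 to 1.05, Ankrd37 -0.76 to 0.54 and Hilpda -0.11 to 0.062. None of these values passed the test in the fit of all 6 libraries. With 2 libraries a group, the median standard error of 0.33 on the log2 scale limits what can be called, and Car9, Hif3a, Stc1 and Car12 also had few counts.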
